A study of Mus musculus with 20 samples.

Results

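Mouse TH17 cells, the CD4 T cells that make interleukin-17, were compared between cultures raised with IL-23, IL-1β and IL-6, which the labels call TH17(23) or pathogenic, and cultures raised with TGF-β1 and IL-6, called TH17(β) or nonpathogenic. The comparison rests on 4 of the 20 samples of the series, chosen by their labels: the 2 libraries of control cells in the TH17(23) recipe and the 2 Ad-control libraries in the TH17(β) recipe. All cells came from C57BL/6 mice as naive CD4+ T cells of lymph node or spleen. In both recipes they were stimulated with plate-bound anti-CD3ε (5 µg/ml) and anti-CD28 (2 µg/ml), with anti-IL-4 and anti-IFN-γ antibodies at 10 µg/ml each. The TH17(23) cultures received 20 ng/ml each of IL-23, IL-1β and IL-6 and no added TGF-β1, and they were the controls for miR-21 knockout mice. The TH17(β) cultures received 2 ng/ml TGF-β1 and 20 ng/ml IL-6, and carried the control construct for a c-Rel overexpression construct. The TH17(23) control cells carried no construct per the labels. Recipe, construct, mouse colony, experiment and possibly library kit therefore differed together and cannot be told apart. By the Xist and Y-linked counts given below, the TH17(23) cells were female and the Ad-control cells male. Sex thus differed along with the rest. The sources used here do not state the age or sex of the mice, the time in culture, or whether replicates came from separate mice or cultures. P-values thus measure the spread between these libraries, which may be technical. A second pair of groups from the same experiments, miR-21-/- cells in the TH17(23) recipe and Ad-c-Rel cells in the TH17(β) recipe (2 libraries each), shares no library with the first. It served as a further reading that carries the same confounders and adds those 2 modifications.

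TGF-β1 and IL-6 together induce the TH17 lineage through SMAD and STAT3 signalling. Cells made this way express IL-10, c-MAF and the aryl hydrocarbon receptor (AHR) and are poor at causing autoimmune disease. IL-1β and IL-23 with IL-6 give cells that are known to transfer disease in mice, and IL-23 receptor, GM-CSF (gene Csf2) and granzyme B are among the products usually listed for that state. SMAD7, SKI and SKIL are inhibitors that TGF-β signalling induces or degrades as feedback on itself.

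Gene counts summed to 36397176 and 36711252 in the TH17(23) libraries and to 15421743 and 19930807 in the Ad-control libraries. Levels are given in CPM, counts scaled to library size with TMM factors, replicate 1 before replicate 2. Both groups expressed T cell genes: Cd3e was at 161 and 174 CPM in TH17(23) and 223 and 209.9 CPM in TH17(β), and Cd4 at 713 and 772 against 952 and 913 CPM. Of 12 T cell identity genes tested, 10 were lower in TH17(23) and 1 higher, with a median log2 fold change of −0.78 against 0.06 over all genes tested. Cd4 and Cd3e were no longer called without either Ad-control library (adjusted p from 0.0521 to 0.105 in edgeR). The libraries also stood apart in ways the recipe labels do not describe. Xist, the transcript that coats the inactive X chromosome, had 120350 and 131451 counts in TH17(23) and 0 and 0 in Ad-control, whereas 4 Y-linked genes summed to 0 and 0 against 8507 and 11695 counts. The share of reads outside annotated genes was 20.4% and 18.8% in TH17(23) and 11% and 9.65% in Ad-control, and the ribosomal RNA entry Rn45s held 2.49% and 0.571% against 0.0380% and 0.0331%. Alignments recorded as not unique made up 0% and 0% against 2.25% and 2.46%. Alignment output may thus have been handled differently for the groups, which was not tested. The TH17(23) libraries were made with a stranded total RNA kit per the labels, and the labels leave the kit of the Ad-control libraries unclear. Differences of at least 4-fold in protein-coding genes other than histone genes were therefore counted separately. Smaller differences are given as values and as counts of calls.

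Markers of other cells were low. Of 16 myeloid markers 3 had enough counts to be tested, C1qa, C1qb, S100a8, S100a9 and Elane were at 0 in all 4 libraries, and the summed level of the list was 9.77 and 10.3 CPM in TH17(23) against 25.9 and 31.2 CPM in TH17(β). The 10 B cell markers summed to 27.2 and 37.7 CPM against 91.4 and 83.9 CPM, mostly through Sdc1 (21.3 and 22.3 against 89.2 and 81.8 CPM), which activated T cells can also express. The 8 NK and CD8 markers summed to 20.8 and 24.4 CPM against 40.3 and 37.2 CPM, with Ncr1 and Klrb1c at 0 everywhere. Of the 6 tested, however, 3 were higher in TH17(23), 2 of them by large differences, and 2 lower (median 0.44). The 10 stromal and epithelial markers summed to 112 and 119 against 139 and 134 CPM, and the 10 mast cell, basophil and platelet markers to 21.4 and 25.6 against 19.0 and 16.9 CPM. Their part in the results was not tested. In bulk RNA, fewer cells of a type and less RNA per cell cannot be told apart.

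Differences covered most of the transcriptome. A gene was called at an adjusted p under 0.05 in edgeR's quasi-likelihood test with Benjamini-Hochberg adjustment, and its difference was termed large when it was also at least 4-fold, with the libraries of the groups not overlapping. Of 13088 genes tested, 74.6% were called, 5060 higher in TH17(23) (38.7%) and 4699 lower (35.9%). Of 12264 protein-coding genes, 1825 were higher by a large difference (14.9%) and 370 lower (3.02%). Counts for the gene lists below are to be read beside these shares, and several of them lie near the shares. Large increases outnumbered large decreases in every quintile of protein-coding genes by mean level, from 33.3% against 4.04% of genes in the lowest to 8.68% against 4.44% in the highest, and the median log2 fold change ran from 1.08 to −0.40 across the quintiles. By genomic span, the median was −0.215 in the shortest quintile and 0.537 in the longest. Large increases made up 15.8% and 20.5% of genes there, and 11.8% in the middle quintile. Whether gene length contributed was not tested. With libraries scaled to the 12 T cell identity genes in place of TMM factors, the median of all genes shifted by 0.871 on the log2 scale and 83.9% of called genes were higher against 51.8%. Genes lower by less than that shift thus turned direction, and counts under this scaling are given beside several of the lists. In all 8 cultured libraries together, 1654 of the large increases (13.5% of protein-coding genes) and 366 of the large decreases (2.98%) kept every TH17(23) library on one side of every TH17(β) library.

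**Figure D1:**
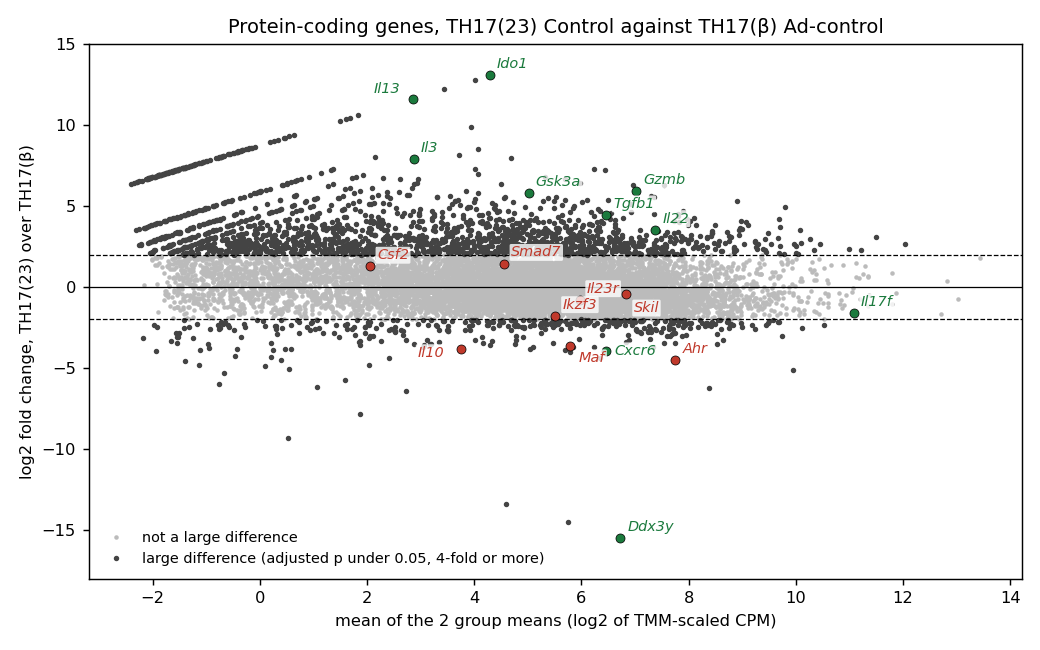
Log2 fold change of each tested protein-coding gene (y axis, TH17(23) Control over TH17(β) Ad-control) against its mean level (x axis, log2 CPM). Dark points are large differences, dashed lines mark 4-fold, red points are the state markers and green points other named genes. Fitted values above 6 in the upper rows of points at the left come from genes with no or almost no count in TH17(β), and large increases (1825) outnumber large decreases (370).

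Of the 8 state markers, the 4 usually listed for the TGF-β state were all lower in TH17(23), while the IL-23 pair and the feedback pair each divided. Ahr, the ligand-activated transcription factor, showed the widest gap: it was at 17.9 and 18.9 CPM in TH17(23) and 408 and 418 CPM in TH17(β), a log2 fold change of −4.49 (SE 0.129, adjusted p = 9.52e-10). Maf, which encodes the IL-10 inducer c-MAF, was at 8.66 and 8.02 against 109 and 94.6 CPM (−3.61, SE 0.143). Il10 itself was at 1.63 and 1.83 against 27.1 and 23.0 CPM (−3.85, SE 0.214, adjusted p = 3.40e-08). These 3 genes of the TGF-β state were all lower in TH17(23) by large differences. Ikzf3, encoding the Ikaros-family repressor Aiolos, was lower too but by under 4-fold, at 19.1 and 22.1 against 72.2 and 69.3 CPM (−1.78, SE 0.133).

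Of the 2 markers of the IL-23 state, Csf2 was higher and Il23r lower in TH17(23). Csf2 was at 7.95 and 3.80 CPM against 1.89 and 2.92 CPM (1.27, SE 0.377, adjusted p = 0.00942), with replicate 1 of TH17(23) well above replicate 2 and the latter only just above TH17(β). Without Ad-control replicate 1 its log2 fold change was 0.97 and no longer called (adjusted p = 0.126 in edgeR), and with the spread estimated over 8 libraries its adjusted p was 0.0554. Il23r, the receptor subunit for IL-23, was at 50.8 and 40.7 CPM in the cultures that received IL-23 and 71.5 and 86.7 CPM in those that did not (−0.79, SE 0.147, adjusted p = 4.42e-04), a direction that turned to 0.09 under T cell identity scaling. Neither difference was large in the control pair. In the second pair of groups Il23r was at 24.6 and 17.6 against 116 and 128 CPM (−2.53), a large difference. Every TH17(23) library lay below every TH17(β) library for Il23r when all 8 were scaled together.

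The 2 TGF-β feedback markers also moved apart. Smad7 was higher in the cultures without added TGF-β1, at 32.4 and 36.2 CPM against 13.4 and 11.8 CPM (1.45, SE 0.156), and Skil was slightly lower there, at 98.4 and 97.0 against 131 and 132 CPM (−0.43, SE 0.109, adjusted p = 0.00388, and 0.45 under T cell identity scaling). Of the 8 markers, 6 were called lower and 2 higher, and 3 reached a large difference.

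**Figure D2:**
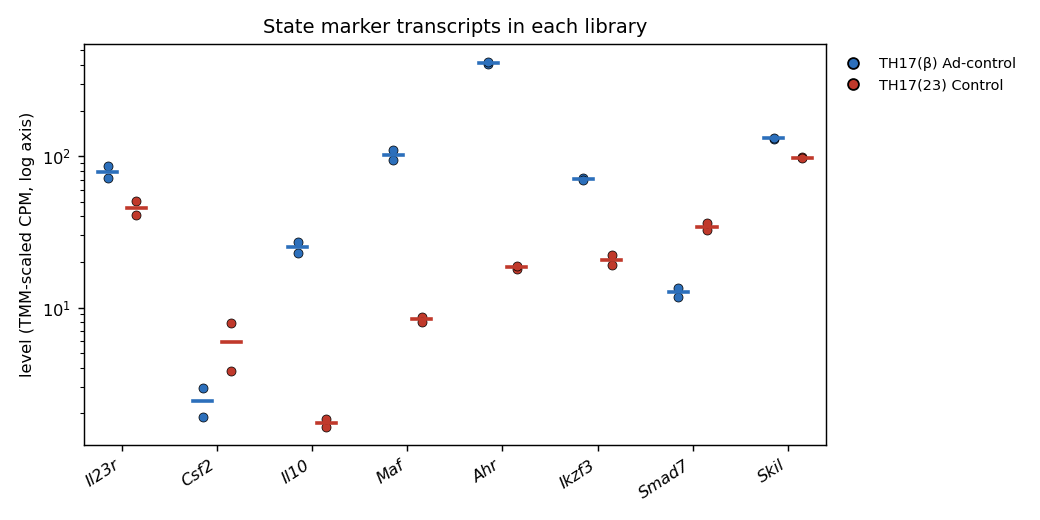
Level of each state marker in each library (points, TMM-scaled CPM on a log axis) with the group mean as a bar; blue is TH17(β) Ad-control and red TH17(23) Control. Ahr, Maf and Il10 are separated by more than 10-fold, Csf2 lies closest to overlap and Smad7 lies higher in TH17(23). Il23r lies lower there, by a log2 fold change of −0.79. It turned to 0.09 under T cell identity scaling and was −2.53 in the second pair of groups.

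The TH17 programme itself was present in both recipes. Rora, encoding a nuclear receptor that contributes to TH17 differentiation, was at 116 and 147 CPM in TH17(23) against 363 and 355 CPM in TH17(β) (−1.45). Il17f was at 1191 and 939.8 against 3100.5 and 3415 CPM (−1.61), whereas Il17a was at 440.0 and 227 against 149 and 153 CPM (1.14, SE 0.232; adjusted p = 0.0871 with the spread over 8 libraries). The 2 interleukin-17 genes thus differed in opposite directions. Il22, a cytokine that acts on epithelium, was higher by a large difference, at 402 and 207 against 26.7 and 25.9 CPM (3.53, SE 0.257), and so was Irf4, a transcription factor induced by T cell receptor signals (1122 and 969 against 191 and 178 CPM). Ccl20, the chemokine ligand of CCR6, was close to absent in TH17(23), with 2 and 0 counts against 123 and 129 counts, a ratio of TH17(β) to TH17(23) of 268 with a 95% counting interval of 73.3 to 2222. Its receptor Ccr6 was at 40.0 and 23.6 against 15.2 and 15.9 CPM, a call lost with the spread over 8 libraries (adjusted p = 0.0776). Over the 14 genes of the TH17 core list, 8 were lower and 4 higher (median −0.65), which became 3 lower and 6 higher under T cell identity scaling. Counting intervals and floors cover counting error only.

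Genes usually listed for pathogenic TH17 cells were higher in TH17(23) in 8 of 17 cases and lower in 6. All 6 large differences were increases, against 14.9% of protein-coding genes. Granzyme B (Gzmb), a cytotoxic protease, was at 195 and 315 CPM against 5.21 and 3.33 CPM (5.92, SE 0.272, adjusted p = 9.63e-09). Il3, a growth factor of myeloid precursors, had 590 and 488 counts against 0 and 2, 254 times as many per unit of library size (counting interval 70.1 to 2098). The chemokine genes Cxcl3 (9.29 and 7.82 against 0.261 and 0.205 CPM), Ccl3 (9.58 and 4.24 against 0.912 and 0.769 CPM) and Ccl5 (13.4 and 23.0 against 3.45 and 3.64 CPM) and the cytokine Il22 made up the rest. Against them, Lgals3 (−1.88), Lag3 (−1.55), Stat4 (−1.02), Icos (−0.99), Il7r (−0.97) and Il23r were lower. The median of the list was 0.50, and T cell identity scaling gave 11 higher and 2 lower.

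The non-pathogenic list held 7 genes, of which 5 were lower and 2 higher (median −2.19). Besides Ahr, Maf, Il10 and Ikzf3, Il6st was lower by a large difference, at 17.7 and 22.8 against 93.0 and 92.1 CPM (−2.19, SE 0.146); it encodes gp130, the signalling chain of the IL-6 receptor. The exceptions were Il1rn, encoding the antagonist of the IL-1 receptor, at 20.8 and 18.0 against 0.391 and 0.410 CPM (5.58, SE 0.290), and Il9 at 5.08 and 2.91 against 0.0651 and 0.308 CPM (4.30, SE 0.560), which was at 0.96 in the second pair of groups (adjusted p = 0.321 in edgeR).

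The second pair of groups separated these genes further. In miR-21-/- against Ad-c-Rel cells, 1596 of 12009 protein-coding genes were higher (13.3%) and 412 lower (3.43%) by large differences, and 35.0% and 33.2% of all genes tested were called higher and lower. The 1215 large increases shared by both pairs were 66.6% of those of the control pair and 76.1% of those of the second, and the 213 shared decreases were 57.6% and 51.7%. Ahr (−4.80), Maf (−4.88) and Il10 (−4.73) were lower and Gzmb (4.49) and Il3 (3.19) higher in both pairs. Csf2 was in the opposite order in the second pair, at 5.28 and 1.60 CPM against 9.96 and 11.1 CPM (−1.60), and Il17a likewise (1.14 in the control pair and −2.12 in the second). Il22 was at 0.58, Cxcl3 at −0.12 and Ccl3 at −0.98 there. Of the 17 genes of the pathogenic list, 5 were called higher and 8 lower in the second pair (median −0.98). Of these, 2 were large increases and 3 large decreases. In the non-pathogenic list 1 was higher and 5 lower there (median −1.73). Over all 8 libraries, 3 of the 6 large increases of the pathogenic list and 4 of the 4 large decreases of the non-pathogenic list kept the recipes apart. Among all protein-coding genes, 1654 of 1825 large increases and 366 of 370 large decreases did so.

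**Figure D3:**
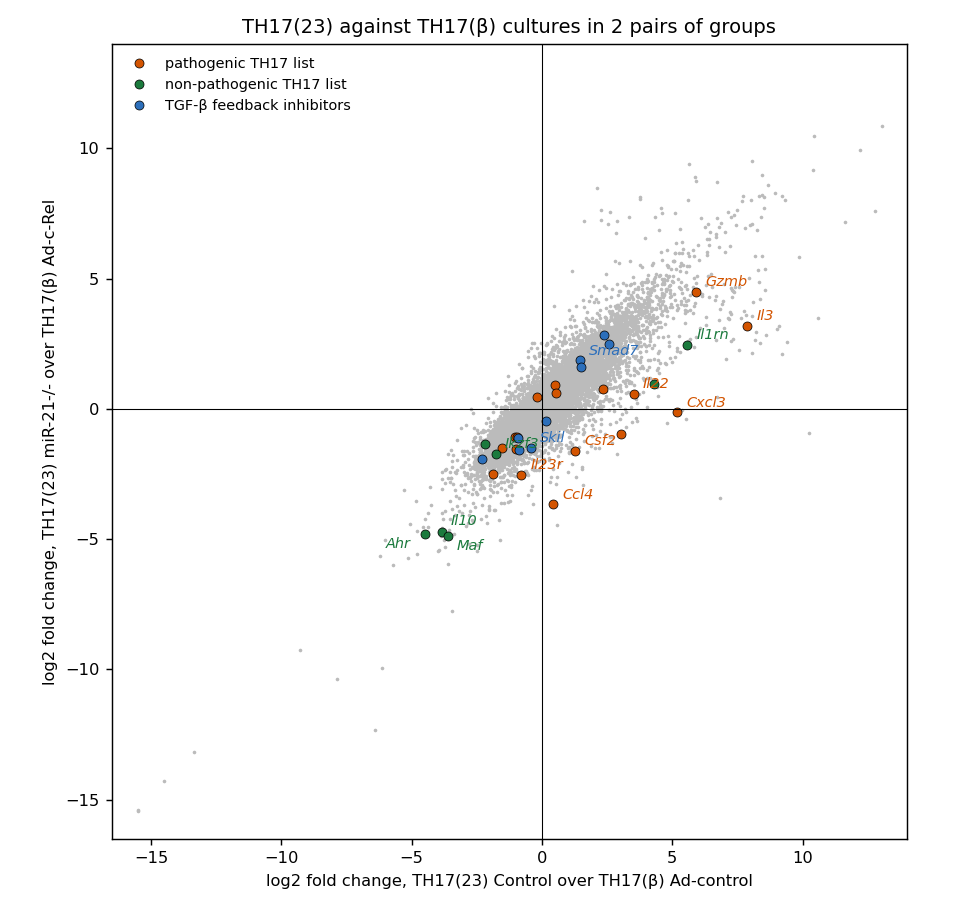
Log2 fold change between the recipes in the control libraries (x axis) and in the miR-21-/- and Ad-c-Rel libraries (y axis) for each protein-coding gene tested in both (grey), with members of 3 lists coloured. Ahr, Maf and Il10 lie at the lower left in both pairs, while Csf2, Ccl3 and Ccl4 of the pathogenic list lie below 0 on the y axis and above 0 on the x axis.

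TGF-β pathway genes went in both directions within each role. Among ligands, receptors and SMADs, 13 of 22 tested were higher in the cultures without added TGF-β1 and 6 lower (median 0.78, or 17 and 2 under T cell identity scaling), with 6 large increases and 0 large decreases. The shares over all protein-coding genes were 14.9% and 3.02% for large increases and decreases. The ligand gene Tgfb1 was at 162 and 174 CPM in TH17(23) and 9.71 and 5.95 CPM in TH17(β) (4.44, SE 0.196, adjusted p = 7.57e-09). Inhba, encoding an activin subunit, was at 340.3 and 189.8 against 30.0 and 28.0 CPM (3.19), and Ltbp3, which anchors latent TGF-β, at 29.3 and 36.7 against 6.84 and 4.51 CPM (2.55). Ligand genes did not all go this way, since Tgfb3 was lower (−0.53; adjusted p = 0.0745 without Ad-control replicate 1, and 0.34 on the log2 scale under T cell identity scaling). In the second pair of groups Tgfb1 was at 4.04 and Inhba at −0.01.

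The receptors for TGF-β itself were lower by small amounts, Tgfbr1 at 22.4 and 18.9 against 33.9 and 39.7 CPM (−0.84) and Tgfbr2 at 62.9 and 75.4 against 99.9 and 87.5 CPM (−0.44), and turned to 0.04 and 0.43 under T cell identity scaling. Tgfbr2 was not called without Ad-control replicate 1 (adjusted p = 0.0874 in edgeR). Activin and BMP receptors were mixed: Acvr1b (2.76), Acvr1 (2.65), Bmpr1a (1.84) and Bmpr2 (1.67) were higher and Acvr2a lower (−1.58). Of the receptor-activated SMADs, Smad3 (0.70) and Smad5 (0.84) were higher and Smad2 (−0.72, but 0.15 under T cell identity scaling) and Smad1 (−1.39) lower. Smad4, the partner they share, was at 72.3 and 86.5 against 18.4 and 20.5 CPM (2.03, SE 0.143), just past 4-fold.

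Feedback inhibitors divided evenly, with 4 higher and 4 lower of 9 tested (median 0.14), or 6 and 1 under T cell identity scaling. With Smad7, the co-repressor Ski was higher, at 119 and 124 against 25.3 and 21.5 CPM (2.38), as were the ubiquitin ligase genes Smurf2 (63.6 and 101 against 13.4 and 13.8 CPM, 2.59) and Smurf1 (1.51). Lower were Ldlrad4, a membrane inhibitor of SMAD activation, at 8.24 and 9.65 against 45.3 and 43.8 CPM (−2.32), Tgif1 (−0.93), Bambi (−0.89, adjusted p = 0.0739 without Ad-control replicate 2) and Skil. In the second pair the same 4 genes were higher (log2 fold changes 1.61 for Smurf1 to 2.82 for Ski) and the same 4 lower (−1.93 for Ldlrad4 to −1.11 for Tgif1).

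Genes known to be induced by TGF-β showed no common direction, with 4 higher and 4 lower of 13 tested, or 9 and 2 under T cell identity scaling. Nt5e, encoding the ectoenzyme CD73, was at 18.0 and 27.6 CPM in TH17(23) against 294 and 309 CPM in TH17(β) (−3.72, SE 0.186), and Tgfbi, an extracellular matrix gene, was lower by −4.26 at low levels. Rgs16 was higher (2.66), Foxp3 was low in both groups (0.790 and 0.943 against 0.847 and 0.615 CPM, adjusted p = 0.606), and Itgae was at 0.48 (adjusted p = 0.168, but 0.00179 without TH17(23) replicate 2). AHR targets were tested with them: of 6 genes, 3 were lower and 0 higher (0 and 2 under T cell identity scaling). Cyp1a1, the most used AHR readout, was at 3.71 and 0.943 against 9.25 and 9.74 CPM (−2.02, SE 0.447). Under T cell identity scaling it was at −1.13 and no longer called (adjusted p = 0.0725 in edgeR).

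Receptors of the cytokines in the 2 recipes went in both directions. Il6ra (69.0 and 70.4 against 70.9 and 69.3 CPM) and Il1r1 (0.23 on the log2 scale) were not called (adjusted p = 0.955 and 0.101). Il1rap, the IL-1 receptor's accessory chain, was lower (−1.86), and Il1r2, the decoy receptor, higher (247 and 278 against 120.1 and 139 CPM, 1.02). Il2rg, the common γ chain, was at 444 and 520.0 against 2247 and 2662 CPM (−2.35) and Il10ra at 140.3 and 222 against 29.4 and 23.0 CPM (2.79); with Il6st these were the large differences among 19 receptor genes, 6 of them higher and 7 lower (13 and 3 under T cell identity scaling). In the IL-1 pathway the adaptor Myd88 was lower (53.2 and 49.3 against 219 and 224 CPM) while the kinases Irak1 (92.5 and 96.2 against 17.1 and 16.7 CPM) and Map3k7, encoding TAK1 (127 and 139.8 against 16.9 and 14.9 CPM), were higher by large differences. None of 17 JAK, STAT and SOCS genes differed by 4-fold, Jak2 (1.64) and Pias1 (−1.96) coming closest.

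Type 2 cytokine genes were higher in TH17(23) although anti-IL-4 was present in both recipes. Il13 had 611 and 464 counts against 0 and 0, at least 169-fold higher when the 0 is replaced by 3 counts, the limit that 0 counts in a group allow. Il4 was at 2.24 and 2.11 against 0.195 and 0.256 CPM (3.22, SE 0.475), and Il5 had 25 and 19 counts against 0 and 0, at least 6.90-fold higher. Gata3, which encodes the TH2 lineage factor, was lower in the same libraries, at 17.3 and 14.8 against 72.5 and 83.8 CPM (−2.28, SE 0.143). On the list of TH2, regulatory and follicular T cell genes, 7 of 11 were higher and 3 lower. The higher genes included Ikzf2, encoding Helios (28.7 and 39.2 against 4.56 and 3.90 CPM), and Ikzf4 (101 and 128 against 29.9 and 23.1 CPM). The lower ones included the follicular genes Bcl6 (−2.26) and Cxcr5 (−2.55). Of the TH1 genes Ifng was low, at 4.32 and 2.02 against 2.80 and 0.666 CPM (adjusted p = 0.143, but 4.25e-05 without TH17(23) replicate 2, 0.0186 without Ad-control replicate 1 and 0.0192 with a replicate block), and the receptor Ifngr1 was at 50.5 and 62.8 against 432 and 448 CPM (−2.96).

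Il4, Il13, Il5, Csf2 and Il3 lie in 1 cytokine cluster on mouse chromosome 11, together with other genes. The cluster was looked at after the values of its members had been seen. From Kif3a to Acsl6 it spans 799 kb and 14 protein-coding genes in the RefSeq annotation of GRCm38.p6, of which 13 were tested. Large increases were found for Il4, Il13, Il5, Il3 and Acsl6, an acyl-CoA synthetase gene beside Il3 (8.69 and 8.10 against 0.0651 and 0.256 CPM), and Csf2 was the only other gene called higher. In the second pair Il4 was at 0.61, Il13 at 7.18, Il3 at 3.19 and Acsl6 at 4.60, and Il5 had too few counts to be tested. The other genes tested differed by less than 2-fold: Rad50, between Il13 and Il5, was at 68.1 and 68.5 against 47.2 and 61.5 CPM (0.33, adjusted p = 0.0521, but 0.0130 without TH17(23) replicate 1, 0.0173 without replicate 2, 0.0271 without Ad-control replicate 2 and 0.0427 with a replicate block), Slc22a5 was at −0.21 (adjusted p = 0.267), and Irf1 (−0.93), P4ha2 (−0.49, adjusted p = 0.0704 without Ad-control replicate 2) and Kif3a (−0.89) were lower.

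**Figure D4:**
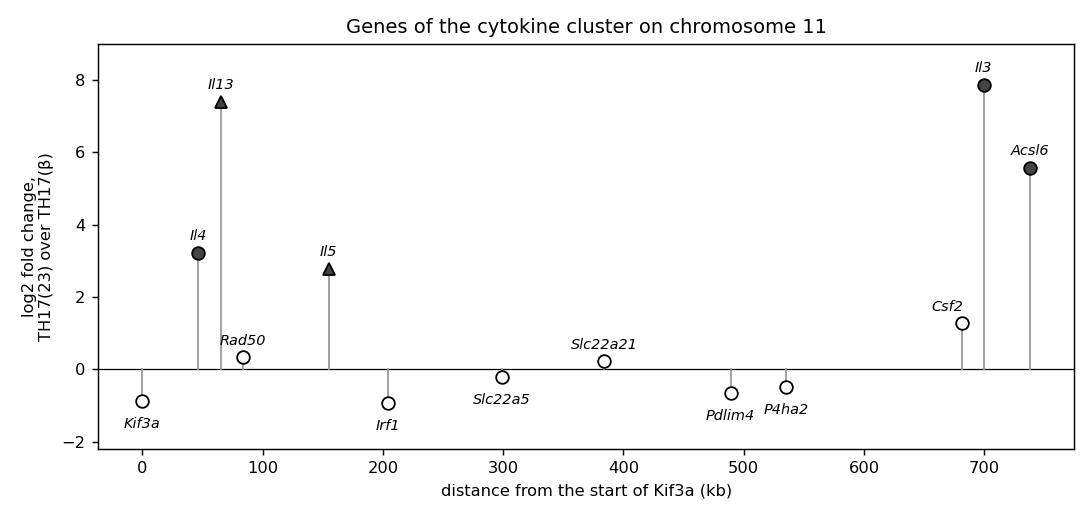
Log2 fold change (y axis) of the 13 tested genes of the chromosome 11 cytokine cluster by the distance of their first base from that of Kif3a (x axis, kb); filled symbols are large differences and triangles are lower bounds for genes at 0 counts in TH17(β). The cytokine genes and Acsl6 rise above 2 except Csf2, while the other genes stay within 1 of 0.

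The 250 bases before the start sites of Il3, Csf2 and Il13 are shown because, among the cytokine genes of the cluster, Il3 and Il13 had the highest log2 fold changes and Csf2 the lowest. Sequences are from RefSeq for GRCm38.p6, all on the minus strand, printed 5′ to 3′ along the gene. Capitals mark the NFAT core, the letters GGAAA on either strand (TTTCC where it lies on the other strand); NFAT is the calcium-driven factor through which T cell receptor signals reach cytokine genes.
Il3 (chr11:54267280-54267529): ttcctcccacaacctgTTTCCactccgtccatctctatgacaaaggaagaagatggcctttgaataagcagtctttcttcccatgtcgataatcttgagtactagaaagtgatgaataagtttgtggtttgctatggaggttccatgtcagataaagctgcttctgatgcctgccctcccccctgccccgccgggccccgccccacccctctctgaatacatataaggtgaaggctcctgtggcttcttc
Csf2 (chr11:54249900-54250149): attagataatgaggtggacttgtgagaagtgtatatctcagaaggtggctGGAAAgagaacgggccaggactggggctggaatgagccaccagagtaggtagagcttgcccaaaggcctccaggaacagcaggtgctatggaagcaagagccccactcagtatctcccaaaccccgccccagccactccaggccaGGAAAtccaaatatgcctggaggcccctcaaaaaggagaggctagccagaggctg
Il13 (chr11:53634703-53634952): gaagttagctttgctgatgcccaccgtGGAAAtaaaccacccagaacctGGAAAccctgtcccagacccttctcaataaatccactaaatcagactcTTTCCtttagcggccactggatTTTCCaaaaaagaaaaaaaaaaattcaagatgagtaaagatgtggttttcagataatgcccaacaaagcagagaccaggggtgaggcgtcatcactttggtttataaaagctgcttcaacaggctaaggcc
The window of Il3 held 1 match, that of Csf2 2 and that of Il13 4. Of the windows not shown, that of Il5 held 2 and the 2 windows of Il4 held 0 and 5. Windows this few, and shown for their differences, cannot tell whether the number of matches is related to the size of the difference. A match is common: 55.6% of 32851 RefSeq promoter windows of this length held one. The AP-1 motif TGANTCA and the NF-κB consensus, found in 6.75% and 7.25% of windows on either strand, had 0 matches in the 3 windows shown.

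Other secreted factors were mostly higher. Of 16 further effector cytokine genes tested, 11 were higher and 3 lower (median 1.71), with 7 large increases. Over all genes tested 38.7% were called higher and 35.9% lower, and 14.9% of protein-coding genes had a large increase. Lif, an IL-6 family cytokine, was at 1115 and 700.0 CPM against 81.8 and 76.5 CPM (3.52, SE 0.202), Il24 at 570.3 and 589 against 68.7 and 65.1 CPM (3.12), Tnf at 80.3 and 57.2 against 10.4 and 7.33 CPM (2.96) and Il2, a growth factor for T cells, at 18.8 and 11.3 against 0.391 and 0.923 CPM (4.46). Penk, which encodes the opioid precursor proenkephalin, was at 34.0 and 30.8 against 1.30 and 1.69 CPM (4.42), and Areg, an epithelial growth factor gene, at 10.3 and 6.10 against 0.717 and 0.308 CPM. Lower were Il16 (−1.16), Fasl (−1.22, adjusted p = 0.0699 without Ad-control replicate 2) and Osm (−0.62, but 0.26 under T cell identity scaling). In the second pair of groups none of the 16 tested was higher by a large difference, with Lif at 1.51, Il24 at 1.82, Tnf at 0.87, Il2 at 0.47 and Areg at 0.08.

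Cytotoxic genes did not move together with Gzmb. Gzmc was higher at a low level (4.29 and 10.8 against 0 and 0.103 CPM), Prf1, encoding perforin, was at 5.98 and 6.30 against 6.97 and 7.95 CPM (adjusted p = 0.256), and Gzma was at −1.11 (−0.43 and adjusted p = 0.312 without Ad-control replicate 1). Ctsw, encoding cathepsin W, was at 31.5 and 39.0 against 417 and 369 CPM (−3.48). Of 10 tested, 4 were higher and 5 lower (6 and 1 under T cell identity scaling).

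Chemokine receptors shifted in kind. Cxcr6, a receptor of tissue-resident T cells, was at 10.0 and 11.1 CPM in TH17(23) against 148 and 181 CPM in TH17(β) (−3.96, SE 0.148), and Gpr15, which directs T cells to the large intestine, at 8.58 and 4.38 against 97.0 and 111 CPM (SE of its log2 fold change 0.248). Cxcr4 was higher, at 154 and 219 against 11.2 and 10.2 CPM (4.13), as was Ccr4 (286 and 281 against 47.4 and 39.9 CPM, 2.70). All 4 differed by large amounts. All 8 cultured libraries were separated by recipe for Cxcr6 and Gpr15, as they were for 366 of 370 large decreases among all protein-coding genes. Of 14 receptors tested, 5 were higher and 8 lower, including Ccr2 (−1.02) and Ccr7 (−0.84, but 0.03 under T cell identity scaling, where 6 were higher and 4 lower). Integrin genes showed 0 large differences in 17 tested, with Itgav and Itga3 at 1.77 and 1.77 and Itgb7, the gut-homing β7 chain, at −1.65.

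Among costimulatory and inhibitory receptors 10 of 20 were lower and 6 higher (2 and 10 under T cell identity scaling), but the large differences were increases: Btla (381 and 247 against 55.1 and 57.8 CPM), Tigit (91.8 and 84.6 against 15.2 and 17.8 CPM) and Havcr2, encoding TIM-3, at a level under 1 CPM. Cd6 (−1.18), Tnfrsf4, encoding OX40 (−1.10), and Tnfrsf18, encoding GITR (−1.03), were among the lower ones.

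**Figure D5:**
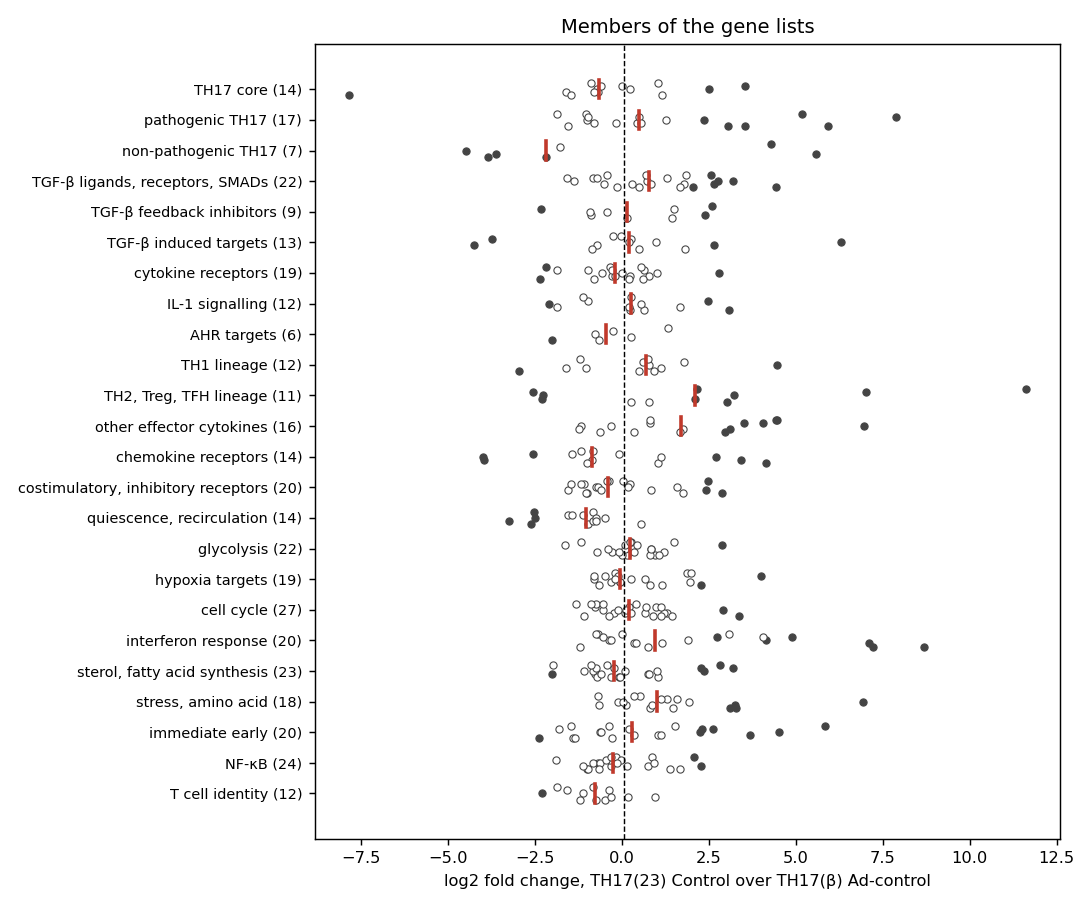
Log2 fold change (x axis) of each tested member of 24 gene lists (rows, number tested in parentheses); filled points are large differences, red bars list medians and the dashed line the median of all tested genes (0.06). With TMM scaling the quiescence list lies almost wholly to the left (6 lower and 2 higher under T cell identity scaling), and the effector cytokine, stress and interferon lists lean to the right.

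Genes of quiescence and recirculation were lower almost throughout, 13 of 14 with 1 higher (median −1.05), but under T cell identity scaling 6 were lower and 2 higher (median −0.17). Foxp1, a factor that keeps T cells quiescent, was at 23.6 and 25.9 against 145 and 139 CPM (−2.52), Klf2, which drives exit from lymph nodes through S1pr1, at 5.26 and 9.12 against 46.1 and 42.7 CPM (−2.63), and Btg1, an antiproliferative gene, at 312 and 353 against 1866 and 1893 CPM (−2.50). Klf3 was the other large decrease (−3.25). Tcf7 (−1.54, but −0.15 and adjusted p = 0.284 in the second pair) and Foxo1 (−1.12) were lower by less, and Bach2 was higher (0.54; adjusted p = 0.0531 without Ad-control replicate 2). T cell identity genes were lower in the same libraries (median −0.78), with Cd3d at 144 and 152 against 709.6 and 732 CPM; their part in this result was not tested. Cell cycle genes were mixed, 12 higher and 8 lower of 27 (21 and 1 under T cell identity scaling): Mki67, the proliferation antigen, was at 254 and 562 against 40.8 and 37.7 CPM (3.38) and Pcna at 222 and 269.8 against 108 and 104 CPM (1.22), while Cdc20 (−1.31) and Ccnb1 (−0.77) were lower.

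The series title concerns glycolysis and the route from miR-21 through Peli1 to c-Rel. Rel, the c-Rel gene, was at 39.0 and 47.7 CPM in TH17(23) against 10.9 and 7.18 CPM in TH17(β) (2.27, SE 0.201, adjusted p = 1.16e-06), and Peli1, encoding a ubiquitin ligase, at 155 and 179 against 567 and 667 CPM (−1.89, SE 0.134). Nfkb1 was also higher (371 and 401 against 95.4 and 86.5 CPM, 2.09), and of 24 NF-κB genes 7 were higher and 11 lower (16 and 1 under T cell identity scaling). In the second pair, where c-Rel was added to the TH17(β) cells, Rel was at 57.2 and 70.7 CPM against 56.6 and 61.6 CPM. Of 22 glycolysis genes 9 were higher and 4 lower (median 0.24, or 19 and 2 under T cell identity scaling), against 38.7% and 35.9% of all genes tested. Among them 1 difference was large: Hk2, the inducible hexokinase, at 348 and 415 against 52.1 and 50.9 CPM (2.89, SE 0.132). The glucose transporter Slc2a1 (0.94), Pfkm (1.20) and Pgk1 (0.85) were higher. Aldoa (2879 and 3583 against 10054 and 10088 CPM, −1.64), Pkm (−0.72) and Ldha (−0.39), among the most abundant members, were lower, of which Pkm and Ldha turned to 0.15 and 0.48 under T cell identity scaling, and the summed level of the list was 33611 and 39814 CPM against 43290 and 42650 CPM. Ldha was not called without either Ad-control library (adjusted p = 0.0910 and 0.0688 in edgeR). Of 19 hypoxia genes 8 were higher and 4 lower (16 and 0 under T cell identity scaling), with Egln1, an oxygen-sensing hydroxylase gene, at 362 and 493 against 24.9 and 28.6 CPM and Hif1a at −0.80 (0.07 under T cell identity scaling).

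Of 23 sterol and fatty acid genes 8 were higher and 10 lower (median −0.24), or 15 and 2 under T cell identity scaling. The 4 large increases included the fatty acid synthesis genes Fasn at 284 and 229 against 65.6 and 40.3 CPM (2.28), Acaca at 91.4 and 76.9 against 17.1 and 15.5 CPM (2.37) and Scd1 at 92.3 and 134 against 14.9 and 17.3 CPM (2.81). Lower cholesterol synthesis genes included Sc5d (−2.02), Msmo1 (−1.99) and Dhcr7 (−1.08, but −0.21 under T cell identity scaling and −0.17 in the second pair). Of 18 genes of the integrated stress response and amino acid supply, 13 were higher and 2 lower (median 1.00). They included Atf3 (38.0 and 52.8 against 5.34 and 4.31 CPM, 3.24), the arginine transporter Slc7a1 (115 and 94.3 against 13.4 and 11.2 CPM, 3.09) and the serine pathway genes Psat1 (1.93), Phgdh (1.14) and Shmt2 (1.48).

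Immediate early genes went both ways, 10 higher and 9 lower of 20 (13 and 5 under T cell identity scaling). Egr3 (41.2 and 25.0 against 0.717 and 0.461 CPM, 5.83), Nr4a3 (68.5 and 58.6 against 3.91 and 1.85 CPM, 4.50), Fosl2 (362 and 422 against 84.1 and 76.1 CPM, 2.29) and the phosphatase gene Dusp5 (2.60) were higher. Fos (6.79 and 2.80 against 25.9 and 24.6 CPM, −2.39), Junb (−1.40), Jun (−1.48) and Ier2 (−1.81) were lower. Interferon response genes were higher in 13 of 20 and lower in 5 (median 0.94), most of the large increases at levels of a few CPM, such as Isg15 (7.53 and 10.6 against 0.261 and 0.718 CPM). The summed level of the list was nevertheless lower in TH17(23), at 979 and 1173 against 1503 and 1654 CPM.

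The largest increases among protein-coding genes with at least 10 CPM in the higher group were led by Ido1, encoding the tryptophan-degrading enzyme indoleamine 2,3-dioxygenase 1. It had 1690 and 1219 counts in TH17(23) and 0 and 0 in TH17(β), at least 456-fold higher. Its neighbour and relative Ido2 had 904 and 697 against 0 and 0 counts, at least 251-fold higher, and both were at 0 CPM in the 2 Ad-c-Rel libraries too. Nkain1 had a ratio of 1068 (counting interval 192 to 42205), Erf, an ETS-family repressor, one of 388 (133 to 1884) and Fam71b one of 302 (103 to 1467). Tatdn2 was at 45.6 and 57.0 against 0.0651 and 0.308 CPM (7.97) and Myh11, the smooth muscle myosin heavy chain, at 131 and 168 against 0.717 and 1.13 CPM (7.30). Il13 and Il3, described above, were also among the 10. Near absence in TH17(β) was also found for broadly expressed genes, such as the kinase Gsk3a, named after its values were seen, at 57.9 and 69.1 against 1.11 and 1.13 CPM and 66.4 and 80.1 against 1.18 and 1.33 CPM in the second pair. Whether library preparation or the handling of alignments contributed was not tested.

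The largest decreases began with the Y-linked genes Eif2s3y, Ddx3y, Uty and Kdm5d, at 0 counts in TH17(23) and at least 5223-fold, 5222-fold, 2666-fold and 1194-fold lower there. The others were autosomal. Serpinb1a, a protease inhibitor gene expressed in TH17 cells, was at 8.55 and 9.15 CPM against 596 and 717 CPM (−6.21, SE 0.160, adjusted p = 6.19e-10). Cldnd1, a claudin-domain membrane protein gene, was at 67.0 and 41.4 against 1793 and 2045 CPM (−5.15). Aqp3, a channel for water and glycerol, was at 8.50 and 6.63 against 157 and 155 CPM (−4.36), and Gja5, encoding a connexin, at 0.211 and 0.0832 against 11.8 and 14.3 CPM (−6.41). Nrp (−4.37) and Ahr complete the 10, and Serpinb1a (−5.63), Cldnd1 (−5.71) and Aqp3 (−4.53) were lower in the second pair as well.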

How the data were processed

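RNA-seq counts of 4 cultured libraries were compared, with 4 more as a second pair of groups. The deposited files hold the authors' raw counts by gene symbol. Per the submitters' processing notes, the tools were Trim Galore 0.4.4, TopHat2 2.1.0, HTSeq 0.11.0 and the mm10 build, with no role or order given. Nothing used here states the annotation or strand setting of the counting, so overlapping and antisense genes are uncertain. Lines naming no gene (14.7% to 22.3% of the totals of the 4 libraries) were removed.

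All gene rows entered 1 edgeR fit (edgeR 4.0.16, R 4.3.3; low counts removed by filterByExpr, TMM factors, two-sided quasi-likelihood F test, Benjamini-Hochberg adjustment over all genes tested, threshold 0.05), without covariates. Groups of 2 leave 2 residual degrees of freedom. SEs were taken as |log2 fold change|/√F. The second pair was fitted and scaled separately, so its levels are comparable only within it, except where all 8 libraries were scaled together. Replicates differed beyond sampling noise, so none were merged. Protein-coding status and coordinates came from RefSeq GRCm38.p6, matched by symbol. Named genes are the 8 markers, the 10 largest increases and decreases among large differences with a mean of at least 10 CPM in the higher group (leaving out antigen receptor genes and predicted or clone names), and members of 33 lists of 477 genes. Members and lists were chosen with earlier results of these data known. A few genes that this rule names are not reported here.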

Additional observations from a re-analysis of the deposited data

How the results depend on the processing

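Genes turned direction under 2 settings. Scaled to the T cell identity genes, log2 fold changes were Ccnb1 0.10, Ccr7 0.030, Cd3e 0.50, Cd4 0.54, Hif1a 0.072, Il23r 0.088, Il6ra 0.86, Ldha 0.48, Osm 0.26, P4ha2 0.38, Pkm 0.15, Prf1 0.59, S1pr1 0.13, Skil 0.45, Slc22a5 0.67, Smad2 0.15, Tgfb3 0.34, Tgfbr1 0.043 and Tgfbr2 0.43. In miR-21-/- against Ad-c-Rel libraries they were Bach2 −0.26, Ccl3 −0.98, Ccl4 −3.66, Ccnb1 0.85, Ccr6 −1.47, Cdc20 1.27, Csf2 −1.60, Cxcl3 −0.12, Dusp5 −0.58, Havcr2 −1.72, Ifng −1.37, Il17a −2.12, Il1r1 −0.53, Il1r2 −1.09, Inhba −0.012 and Irf1 0.11. In those libraries 15 further genes kept their direction but lost their call, with log2 fold changes of Areg 0.08, Cd3e −0.19, Cd4 −0.18, Dhcr7 −0.17, Il2 0.47, Il22 0.58, Il4 0.61, Il9 0.96, Kif3a −0.20, Rel 0.11, Slc2a1 0.10, Smad2 −0.16, Tcf7 −0.15, Tgfbr1 −0.29 and Tnf 0.87. Of 179 genes, 44 lost their call under at least 1 setting other than the second pair, 43 of them in the test against a 2-fold difference. The remaining gene, Cyp1a1, lost its call under T cell identity scaling (log2 fold change −1.13, adjusted p = 0.0725 in edgeR). The causes were not tested.

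T cell identity scaling called 8326 genes higher and 1592 lower, with 3168 and 97 large differences. A minimum of 5 CPM left 10137 genes, 9941 of them protein-coding and not histone genes, and gave 1201 and 222 large differences. A test against a 2-fold difference (TREAT) called 2877 and 1578 genes. A size of 2-fold in place of 4-fold gave 3342 and 2328 large differences, and 8-fold gave 898 and 89. DESeq2 called 4641 and 4420. Leaving out each library in turn gave 4166 to 5101 called higher, 3864 to 4837 lower, 1768 to 1978 large increases and 339 to 453 large decreases. Replicate numbers did not pair the samples (r = −0.0426 between deviations), and a fit with the replicate number as a block gave 4999 and 4662 calls with 1816 and 377 large differences. Precision is limited by groups of 2 libraries and, for genes of a few counts, by depth.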
